A study of Mus musculus with 108 samples.

Results

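A set of 10 genes of the GDNF response of spermatogonial stem cells was followed cell by cell, comprising the receptor genes Gfra1 and Ret, and the transcription factor genes Etv5, Bcl6b, Lhx1, Pou3f1, T, Eomes, Egr2 and Egr3. They were taken by symbol, and all 10 were found once among the 26218 gene rows of the table. The study profiled single mouse cells of germline stem cells (GSCs), which are spermatogonial stem cells cultured from testes, and of germline stem cell-like cells (GSCLCs), the comparable cultures obtained from pluripotent stem cells. By their titles the cells belong to 4 lines: 30 cells each come from GSC1 and GSCLC1, and 24 each from GSC2 and GSCLC4. All lines carry the background 129/SvJcl x C57BL/6 and a reporter named AcrAct_EGFP, and all were grown in serum-supplemented StemPro-34 medium with GDNF at 10 ng/ml, basic FGF at 10 ng/ml, LIF and EGF, so no line was without GDNF. For GSC2 the labels name independently collected day 7 (postnatal) testes, and for GSCLC4 a reconstituted testis culture of 3 weeks at 34 °C. The labels do not give the same detail for GSC1 and GSCLC1.

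Glial cell line-derived neurotrophic factor (GDNF) is made by Sertoli cells and other cells around the seminiferous tubules, and it maintains spermatogonial stem cells in the testis and in culture. It binds GFRA1, a receptor anchored to the membrane by a lipid, and the pair engages RET, a receptor tyrosine kinase that signals through SRC family kinases, PI3K and AKT, and RAS and ERK. Etv5, Bcl6b, Lhx1, Pou3f1, T, Egr2 and Egr3 are known as genes whose RNA rises in cultured spermatogonial stem cells given GDNF, and Eomes marks a subset of GFRA1-positive spermatogonia.

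Egr2 is shown by sequence because it is an early response gene with several annotated starts and its rho with Gfra1 in GSCLC1 is the highest of any gene of the set with Gfra1 in a single line. RefSeq (GRCm38.p6, the assembly of mm10) gave promoter windows for 6 of the 10 genes (Gfra1, Etv5, Lhx1, T, Eomes and Egr2), 11 windows in all, each from 250 bases before to 50 bases after a start site. A set of 5 motifs was searched on both strands: the CArG box (CC, then 6 bases that are each A or T, then GG), the site of serum response factor, the ETS site CCGGAAGT, the EGR site GCGTGGGCG, the T-box site TCACACCT and the cAMP response element TGACGTCA. A match was found in 4 of the 5 windows of Egr2, in each case a CArG box, and in 0 windows of the other 5 genes. Of those 4 windows 3 overlap and hold the same box, so the boxes are the pair printed here. The 250 bases before each of a pair of Egr2 starts, on the plus strand and outside annotated Egr2 exons, are given here with the CArG box in capitals.
Egr2 upstream of the start at 67537566, chr10:67537316-67537565: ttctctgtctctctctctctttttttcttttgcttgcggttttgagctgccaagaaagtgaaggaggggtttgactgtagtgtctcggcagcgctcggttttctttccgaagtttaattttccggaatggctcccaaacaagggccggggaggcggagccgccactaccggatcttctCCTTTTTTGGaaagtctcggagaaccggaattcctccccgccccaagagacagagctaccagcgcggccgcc
Egr2 upstream of the start at 67537869, chr10:67537619-67537868: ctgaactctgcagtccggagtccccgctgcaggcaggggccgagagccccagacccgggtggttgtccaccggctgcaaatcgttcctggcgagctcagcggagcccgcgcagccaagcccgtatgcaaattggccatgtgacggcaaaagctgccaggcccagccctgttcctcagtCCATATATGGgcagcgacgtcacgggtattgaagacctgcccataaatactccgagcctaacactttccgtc
Both boxes begin 72 bases before their start site. A CArG box was present in 1.56% of the 22152 windows of all genes, the ETS site in 5.11%, the EGR site in 0.844%, the T-box site in 1.17% and the cAMP response element in 2.27%. A match is a run of letters and was not tested as a binding site, and reads from 3′ ends do not tell which start was used.

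Expression was measured by SC3-seq, which amplifies cDNA of 1 cell and reads the 3′ ends of polyadenylated RNA, and was deposited in RPM (the reads of each cell scaled to a common library size). RPM of 3′-end reads is not divided by gene length. The estimated depth was 3.45 M reads per cell at the median and 2.00 M to 6.05 M over all cells, so that 5 RPM, the level used here to count a cell as having a gene, was worth 9.99 to 30.2 reads. The labels name no molecular identifiers, and intervals on shares of cells cover counting error only. The line means of 5 germ cell markers (Dazl, Ddx4, Mael, Tdrd1 and Tex19.1) summed to between 4759 RPM (GSC1) and 5428 RPM (GSCLC1). Sertoli cell markers summed to 6.34 to 70.1 RPM over the lines, highest in GSCLC4, with Amh at 0 in all 4 lines. Most of the GSCLC4 sum came from Rhox5 (37.2 RPM, 37.5% of cells at 5 RPM or more) and Wt1 (25.8 RPM, 50% of cells). Wt1 was also at 11.3 RPM in GSCLC1. Leydig cell markers summed to 1.59 to 14.8 RPM, with Cyp17a1 and Cyp11a1 at 0 and the 14.8 RPM of GSC1 from Star alone. One GSC1 cell stood apart. It had 5748 detected genes against a line median of 8791, a fibroblast marker sum of 44495 RPM against a line median of 296 RPM, and a germ cell marker sum of 1274 RPM. Gfra1, Bcl6b, Pou3f1, T, Eomes and Egr3 were at 0 in it and Ret, Etv5 and Lhx1 under 1 RPM, but Egr2 was at 160 RPM. The cell was kept, and without it no gene of the 10 changed its direction or its side of the threshold (Lhx1, for example, had a log2 difference of -1.66). Fibroblast and feeder markers, 11 genes with Lum at 0 in all 4 lines, summed to 2057 RPM in GSC1 with that cell included, 420 RPM in GSC2, 239 RPM in GSCLC1 and 329 RPM in GSCLC4. Fn1, Vim and S100a6 had the highest means of the 11 in each line. The part of these 11 markers in the differences between the types was not tested. Without the GSC1 cell that stood apart, 100% of GSC1 cells reached 5 RPM for Gfra1 and for Etv5, against 96.7% with it. The serial numbers of GSC1 form a pair of runs, 65 to 80 (13 cells) and 129 to 150 (17 cells), whose meaning the labels do not give.

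The receptor genes were found in nearly every cell, and neither passed the threshold between the types of line. Gfra1, which encodes the GDNF-binding co-receptor (chr19:58235581-58455946), had a lowest, median and highest cell of 0, 168.03 and 820 RPM in GSC1, of 6.20, 179 and 752 RPM in GSC2, of 36.8, 216 and 682 RPM in GSCLC1 and of 12.6, 189 and 702 RPM in GSCLC4. The ranges of the 4 lines overlapped over most of their width, and at least 96.7% of cells in each line reached 5 RPM. Its line means were 236 and 204 RPM in the GSC lines and 266 and 254 RPM in the GSCLC lines, a difference of 0.24 ± 0.19 (SE) in log2(mean RPM + 1), with an adjusted p of 0.769 by limma. The GSCLC means lay above both GSC means, and the gap between the types was about as wide as that between GSC1 and GSC2. Within GSC1 the mean was 321 RPM in the run of low serial numbers and 172.1 RPM in the other, a wider gap than that between any of the 4 lines.

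Ret, the gene of the signalling receptor kinase (chr6:118151748-118197744), was lower than Gfra1 on this scale and about as widespread. Its lowest, median and highest cells were 0.33, 69.5 and 261 RPM in GSC1, 0, 76.96 and 400 RPM in GSC2, 0, 106.1 and 565 RPM in GSCLC1 and 2.67, 92.99 and 380 RPM in GSCLC4. Between 90% (27 of 30 cells, GSC1 and GSCLC1) and 95.8% (23 of 24, GSCLC4) of cells reached 5 RPM. The line means of 92.9 and 118.2 RPM in GSC1 and GSC2 overlapped those of 152 and 113.8 RPM in GSCLC1 and GSCLC4 (log2 difference 0.33 ± 0.25, adjusted p = 0.768). Both receptor genes were at 5 RPM or more in 27 of 30 cells of GSC1, 22 of 24 of GSC2, 27 of 30 of GSCLC1 and 23 of 24 of GSCLC4.

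Etv5 and Bcl6b, the factors best known for self-renewal of spermatogonial stem cells, differed little between the lines. Etv5, an ETS family activator of the PEA3 group (chr16:22381313-22439570), had the highest line means of the 10 genes. Its lowest, median and highest cells were 0.66, 215 and 899 RPM in GSC1, 71.5, 232 and 771 RPM in GSC2, 18.5, 304 and 842 RPM in GSCLC1 and 58.03, 274 and 651 RPM in GSCLC4. Outside the GSC1 cell that stood apart, every cell of the 4 lines reached 5 RPM. The line means were 277, 279, 319 and 296 RPM in the same order (log2 difference 0.14 ± 0.18, adjusted p = 0.877), and with the low-numbered GSC1 run alone, at 354 RPM against 218 RPM in the other run, the sign of that difference turned, to -0.034.

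Bcl6b, a BTB zinc finger repressor related to Bcl6 (chr11:70224127-70229798), was less regular. Its lowest cell was at 0 in each line, with median and highest cells of 49.5 and 245 RPM in GSC1, 47.9 and 304 RPM in GSC2, 19.3 and 452 RPM in GSCLC1 and 52.2 and 213 RPM in GSCLC4. GSCLC1 had the lowest median but the highest single cell. Cells at 5 RPM or more made up 70% of GSC1, 79.2% of GSC2, 56.7% of GSCLC1 and 75% of GSCLC4, with 95% exact binomial (Clopper-Pearson) intervals that overlap (37.4 to 74.5% for GSCLC1, 57.9 to 92.9% for GSC2). The line means were 58.99, 78.2, 61.7 and 73.3 RPM, which did not order by type (log2 difference -0.01 ± 0.29, adjusted p = 0.996). The sign of this difference turned under 3 other settings, and its mean was 88.4 RPM in the low-numbered GSC1 run against 36.5 RPM in the other.

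Lhx1 and Pou3f1 had lower means in both GSCLC lines than in either GSC line, although neither passed the threshold. Lhx1 is a LIM homeodomain factor gene (chr11:84517975-84525534). Its lowest cell was at 0 in each line, with median and highest cells of 108.6 and 389 RPM in GSC1, 114.6 and 574 RPM in GSC2, 15.8 and 227 RPM in GSCLC1 and 6.58 and 300 RPM in GSCLC4. The median GSC cell thus lay far above the median GSCLC cell, while the ranges of single cells overlapped. The line means were 134 and 154.7 RPM against 60.8 and 34.4 RPM, a log2 difference of -1.63 ± 0.31. Its adjusted p was 0.0980 by limma, the smallest of the 10 genes (unadjusted p = 1.7e-04), and ran from 0.0205 to 0.701 over the alternative settings. It passed in a pair of them, with a filter at 20 RPM (adjusted p = 0.0394) and without GSCLC1 (log2 difference -2.04, adjusted p = 0.0205). Both the share of cells and the level within those cells were lower in the GSCLC lines. The 95% intervals of the shares overlapped, for example 62.6 to 95.3% in GSC2 and 32.8 to 74.4% in GSCLC4. Cells at 5 RPM or more made up 73.3% and 83.3% of the GSC lines and 56.7% and 54.2% of the GSCLC lines, and their means were 182.96 and 185.6 RPM against 106.3 and 63.2 RPM. In GSCLC4 a single cell held 36.4% of the Lhx1 signal of the line. The GSC1 runs had means of 142.3 and 128.4 RPM, both above the GSCLC lines.

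Pou3f1 encodes a POU domain factor also known as OCT6 (chr4:124657646-124660655). Its lowest, median and highest cells were 0, 48.6 and 334 RPM in GSC1, 2.48, 59.03 and 305 RPM in GSC2, 0, 36.9 and 161.9 RPM in GSCLC1 and 0, 16.4 and 110.7 RPM in GSCLC4. The line means of 76.1 and 89.99 RPM in the GSC lines and 46.5 and 22.5 RPM in the GSCLC lines did not overlap (log2 difference -1.32 ± 0.37, adjusted p = 0.370). The gap between GSCLC1 and GSCLC4, -1.01 in log2, was nearly as large. GSCLC1 lay below the GSC lines in level and among them in share. In it 80% of cells reached 5 RPM, between the 76.7% of GSC1 and the 87.5% of GSC2, with a mean of 57.9 RPM in those cells against 98.7 and 102.4 RPM. GSCLC4 had lower values of both, with 58.3% of cells and 37.8 RPM. The interval of its share, 36.6 to 77.9%, overlapped that of GSC2, 67.6 to 97.3%.

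The T-box genes T and Eomes were found at 5 RPM in a minority of cells of each line. T, or brachyury, best known as a mesoderm factor of the primitive streak (chr17:8434423-8442496), had a median cell of 0.23 RPM in GSC1 and of 0 in the other lines. It reached 5 RPM in 9 of 30 GSC1 cells, 5 of 24 GSC2 cells, 6 of 30 GSCLC1 cells and 1 of 24 GSCLC4 cells. The cells that had T had much of it. Their mean was 166.1 RPM in GSC1, 90.6 RPM in GSC2 and 156.7 RPM in GSCLC1, the highest cells were at 523, 271 and 419 RPM, and the single GSCLC4 cell was at 45.5 RPM. The line means of 50.0, 18.9, 31.6 and 1.92 RPM overlapped between the types (log2 difference -1.71 ± 0.89, adjusted p = 0.621), and without GSCLC4 the difference was 0.031. The GSC1 runs had 84.9 and 23.3 RPM. These means depended on few cells, since the highest cell carried 34.9%, 59.6%, 44.3% and 98.7% of the summed T signal of its line.

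Eomes, a T-box factor gene of a related kind (chr9:118478186-118486132), had a median cell of 0 in all 4 lines. It reached 5 RPM in 8 of 30 cells of GSC1, 4 of 24 of GSC2, 3 of 30 of GSCLC1 and 5 of 24 of GSCLC4. The level in those cells set the lines apart more than their number did, at 100.6 and 41.7 RPM in GSC1 and GSC2 against 20.7 and 15.2 RPM in GSCLC1 and GSCLC4, and the highest cells were at 175, 83.6, 34.6 and 30.97 RPM. The line means of 26.9 and 7.06 RPM against 2.07 and 3.28 RPM did not overlap (log2 difference -2.05 ± 0.78, adjusted p = 0.500), yet GSC1 and GSC2 differed from each other by -1.79. One GSC2 cell held 49.3% of the Eomes signal of its line, and the mean of the other GSC2 cells was 3.73 RPM, close to that of GSCLC4 and under the 5 RPM filter. Eomes entered the test through the GSC lines alone, where it is high, and the same holds for Egr3.

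Egr2 and Egr3, zinc finger genes of the early growth response family, also had lower means in both GSCLC lines. Egr2 (chr10:67534469-67542188), whose upstream sequences are printed above, had a lowest cell of 0 in each line and median and highest cells of 84.8 and 702 RPM in GSC1, 99.8 and 707 RPM in GSC2, 22.1 and 408 RPM in GSCLC1 and 31.7 and 366 RPM in GSCLC4. All 4 lines thus held cells with none beside cells with high levels. The line means were 151.5 and 157.1 RPM against 98.9 and 68.4 RPM (log2 difference -0.90 ± 0.25, adjusted p = 0.383), and the GSC lines differed from each other by 0.05. Cells at 5 RPM or more made up 80% and 87.5% of the GSC lines and 63.3% and 66.7% of the GSCLC lines, with means of 189, 180, 156.1 and 102.2 RPM in those cells. The means of the GSC1 runs, 167.8 and 138.98 RPM, were both above those of the GSCLC lines.

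Egr3 (chr14:70077317-70082613) was present in few cells. It reached 5 RPM in 7 of 30 GSC1 cells, 6 of 24 GSC2 cells, 1 of 30 GSCLC1 cells and 5 of 24 GSCLC4 cells, and the median cell was at 0 in each line. The line means were 36.3, 14.5, 0.900 and 2.89 RPM, with the largest log2 difference of the 10 genes, -3.15 ± 0.73, and an adjusted p of 0.240. The highest cells were at 679, 170.7, 24.5 and 28.2 RPM. The GSC1 cell at 679 RPM held 62.3% of the Egr3 signal of its line, and the mean of the other GSC1 cells was 14.2 RPM. The low-numbered GSC1 run had 27.6 RPM and the other, which holds that cell, 43.03 RPM, or 3.25 RPM without it. The share in GSCLC4 (20.8%, interval 7.13 to 42.2%) was close to that of GSC2 (25%, interval 9.77 to 46.7%), so in this line it was the level in the cells, 13.7 RPM against 57.4 RPM, that was low. Of the cells with Egr3, 5 of 7, 5 of 6, 1 of 1 and 3 of 5 also had Egr2, which is near the share of all cells of each line that had Egr2 except where it rests on 1 cell.

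**Figure D1:**
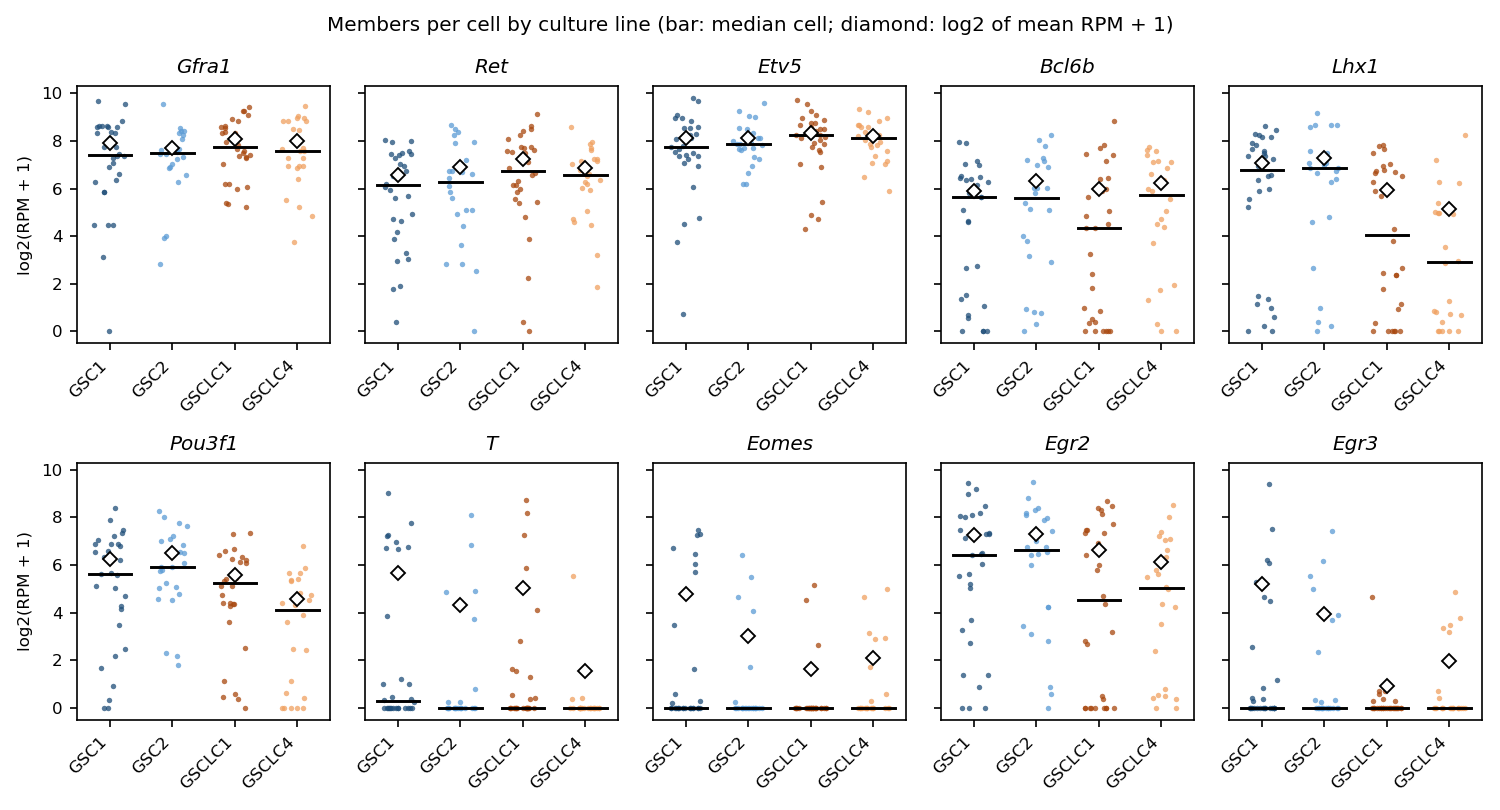
Each panel plots 1 gene on a log2(RPM + 1) axis, with a point per cell, a bar at the median cell and a diamond at log2 of the line's mean RPM + 1, for the lines GSC1, GSC2, GSCLC1 and GSCLC4. The ranges of Gfra1 and of Etv5 overlap between all lines, the medians of Lhx1 fall from 108.6 and 114.6 RPM in the GSC lines to 15.8 and 6.58 RPM in the GSCLC lines, and T, Eomes and Egr3 lie at or near 0 in most cells.

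**Figure D2:**
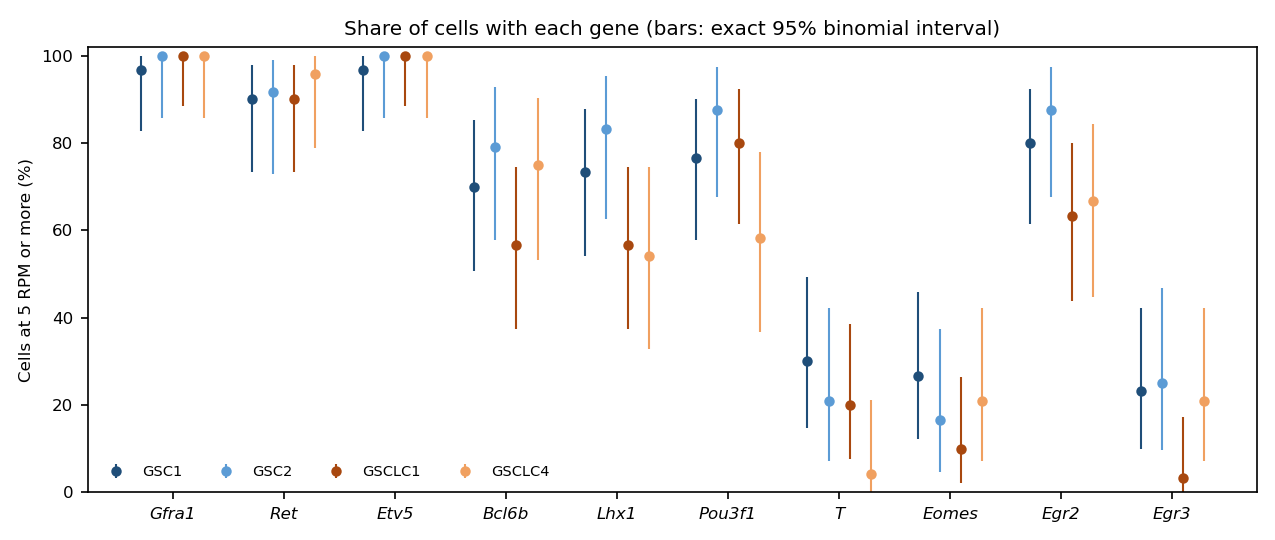
The share of cells at 5 RPM or more is plotted in percent for each gene and line, with exact 95% binomial intervals for counting error. Gfra1, Ret and Etv5 are at 90% or above in all lines, and T, Eomes and Egr3 at 30% or below, with wide and overlapping intervals.

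Between the types of line, none of the 10 genes passed an adjusted p of 0.05 by limma, and 5 had an unadjusted p under 0.05 (Lhx1, Pou3f1, Eomes, Egr2 and Egr3). Of all 10526 genes tested, 8 passed (0.0760%), 2 of them lower in the GSCLC lines (0.0190%) and 6 higher (0.0570%), and 929 had an unadjusted p under 0.05 (8.83%). Both GSCLC means lay below both GSC means for those same 5 genes, and this pattern held for 17.3% of all tested genes. Counted in either direction, with Gfra1 and Etv5 higher in the GSCLC lines, 7 of the 10 genes did not overlap, against 39.3% of all tested genes, and the lines overlapped for Ret, Bcl6b and T. The median log2 difference over the 10 genes was -1.11, beside 0.04 over all tested genes. The genes were chosen with earlier results known. Of the 10, Eomes (-2.05) and Egr3 (-3.15) entered the test through the GSC lines alone, a route that allows only a negative difference. Both are part of that median and of the 5 lower genes. The counts and the median are thus a description and no test of the 10 genes as a set. The receptor genes, Etv5 and Bcl6b were within 0.33 of no difference, and the 6 with differences of -0.90 or lower were the homeobox and POU genes, the T-box genes and the EGR genes.

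How many of the 10 genes a cell had varied widely. The median was 7 genes at 5 RPM or more in GSC1 and GSC2 and 6 in GSCLC1 and GSCLC4, with ranges of 1 to 10, 5 to 10, 3 to 9 and 2 to 9. The GSC1 cell with 1 gene was the cell that stood apart, which had Egr2 alone. One cell of GSC1 and 1 of GSC2 had all 10. Etv5, Bcl6b, Lhx1, Pou3f1 and Egr2 were all present in 10 of 30 cells of GSC1, 12 of 24 of GSC2, 4 of 30 of GSCLC1 and 7 of 24 of GSCLC4. T and Eomes met in 6 of the 11 GSC1 cells that had either, in 2 of 7 such cells of GSC2, and in 0 of 9 and 0 of 6 such cells of GSCLC1 and GSCLC4. T was in 6 and Eomes in 3 cells of GSCLC1, and T in 1 and Eomes in 5 of GSCLC4. With so few, the count of 0 does not set these lines apart from the GSC lines. A count of 0 among 30 profiled cells allows a share of up to 10.0% in the GSCLC1 line, and 0 among 24 a share of up to 12.5% in GSCLC4, and lines were not tested against each other.

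Cell-to-cell variation was set against that of other genes of similar mean, by the rank of the squared coefficient of variation after a fit on the mean, in lines where the gene passed the filter. T was among the most variable genes for its level, in the top 1.46% of GSC1, 0.705% of GSC2 and 0.203% of GSCLC1. Egr3 was in the top 0.387% of GSC1, where 1 cell carried most of the signal, and in the top 6.83% of GSC2. Egr2, though found in most cells, was in the top 2.90%, 2.00%, 3.89% and 3.26% of GSC1, GSC2, GSCLC1 and GSCLC4. Pou3f1 was ordinary or below in each line, at 46.0%, 36.2%, 88.4% and 72.8%. Gfra1 ranked at 7.69%, 14.7%, 18.6% and 4.49%, which places the receptor gene above the middle in all lines although nearly every cell had it.

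Co-expression was described by Spearman's rho over the cells of 1 line, for pairs in which both genes reached 5 RPM in at least 5 cells. The cells of a line share their culture and differ in depth, so the values carry no p. Most pairs leaned positive but weakly. The median rho was 0.16 over 45 pairs in GSC1, 0.16 over 36 in GSC2, 0.21 over 28 in GSCLC1 and 0.10 over 36 in GSCLC4. Without the GSC1 cell that stood apart, the GSC1 median was 0.12. Of the 21 pairs that could be computed in all 4 lines, 10 were positive in each and 0 negative in each. No such median or count was made for pairs of other genes, so whether the lean is particular to these 10 was not tested.

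**Figure D3:**
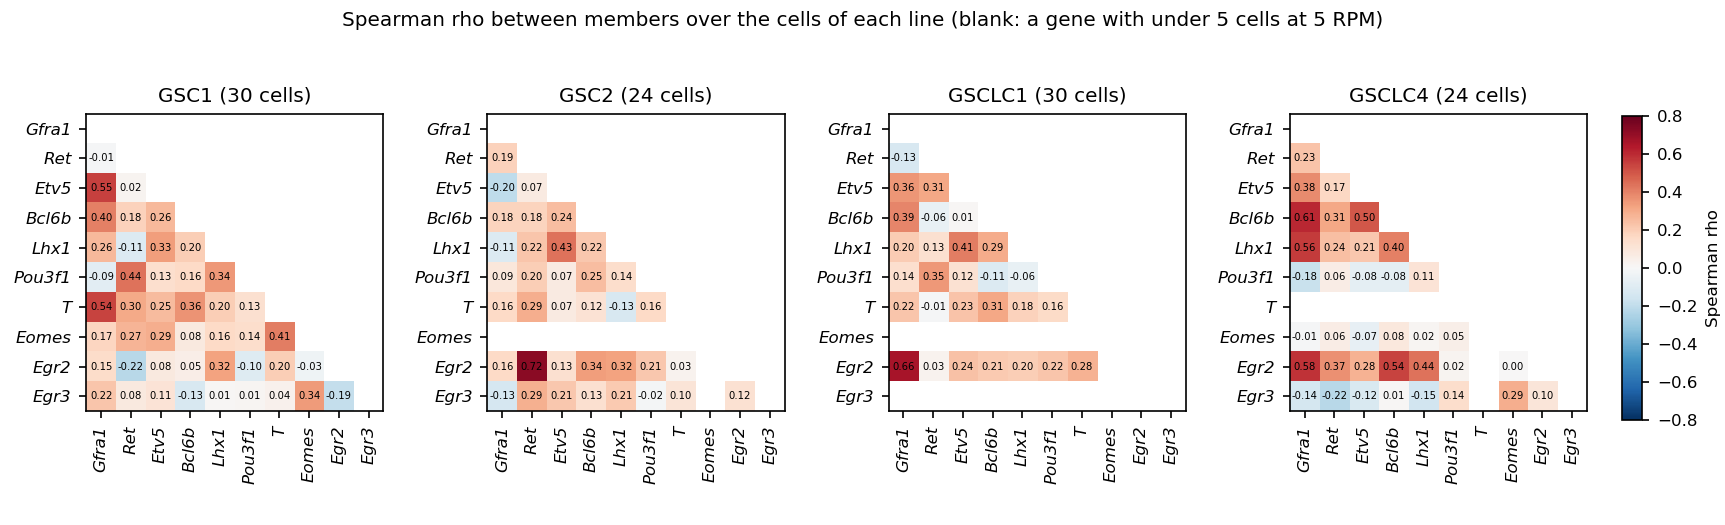
Spearman's rho between each pair of the 10 genes is drawn as a coloured square for each line, from blue (negative) to red (positive), with blanks where a gene had under 5 cells at 5 RPM. The colours are mostly pale red, with the deepest at Ret and Egr2 in GSC2 (0.72) and at Gfra1 and Egr2 in GSCLC1 (0.66).

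The receptor genes showed no steady relation. Gfra1 and Ret, whose products work as a complex, had a rho of -0.01 and 0.19 in the 2 GSC lines and of -0.13 and 0.23 in GSCLC1 and GSCLC4. By mean rho over the lines, Ret came 2721st of 10096 genes in likeness to Gfra1. On the log2(RPM + 1) scale Pearson's r was 0.26, 0.27, -0.05 and 0.44, higher but again not positive in each line. The nearest genes to Ret were Zfml, Phf14 and Sox13, at mean rho of 0.38, 0.38 and 0.36. Over the lines these ran from -0.13 to 0.67, 0.24 to 0.53 and 0.17 to 0.59. Among the other 9 genes Ret was nearest to Pou3f1 (0.44, 0.20, 0.35 and 0.06).

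Gfra1 varied most with Bcl6b and Egr2. Its rho with Bcl6b was 0.40, 0.18, 0.39 and 0.61 over GSC1, GSC2, GSCLC1 and GSCLC4, and Bcl6b came 4th of 10096 genes in likeness to Gfra1. The GSC1 value was uneven, at 0.03 in the low-numbered run and 0.64 in the other. With Egr2 the rho was 0.15 and 0.16 in the GSC lines and 0.66 and 0.58 in the GSCLC lines, and Egr2 came 5th. Of the 6 genes that could be paired with Gfra1 in all lines, Egr2 was the one whose rho was higher in both GSCLC lines than in both GSC lines, a pattern seen for 18.9% of 10096 genes, and an exact two-sided permutation of 2 lines against 2 cannot give a p below 0.333. After regression of ranks on the number of detected genes the values were 0.14, 0.17, 0.68 and 0.63. The genes most like Gfra1 were Marveld2, a tricellular junction protein gene, with a mean rho of 0.48 and 0.35 to 0.57 over the lines, then Abr at 0.43 and Asnsd1 at 0.40. Marveld2 was also the nearest gene to T (0.47 over 3 lines) and the third nearest to Bcl6b (0.40), and Abr was the nearest to Bcl6b (0.46).

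**Figure D4:**
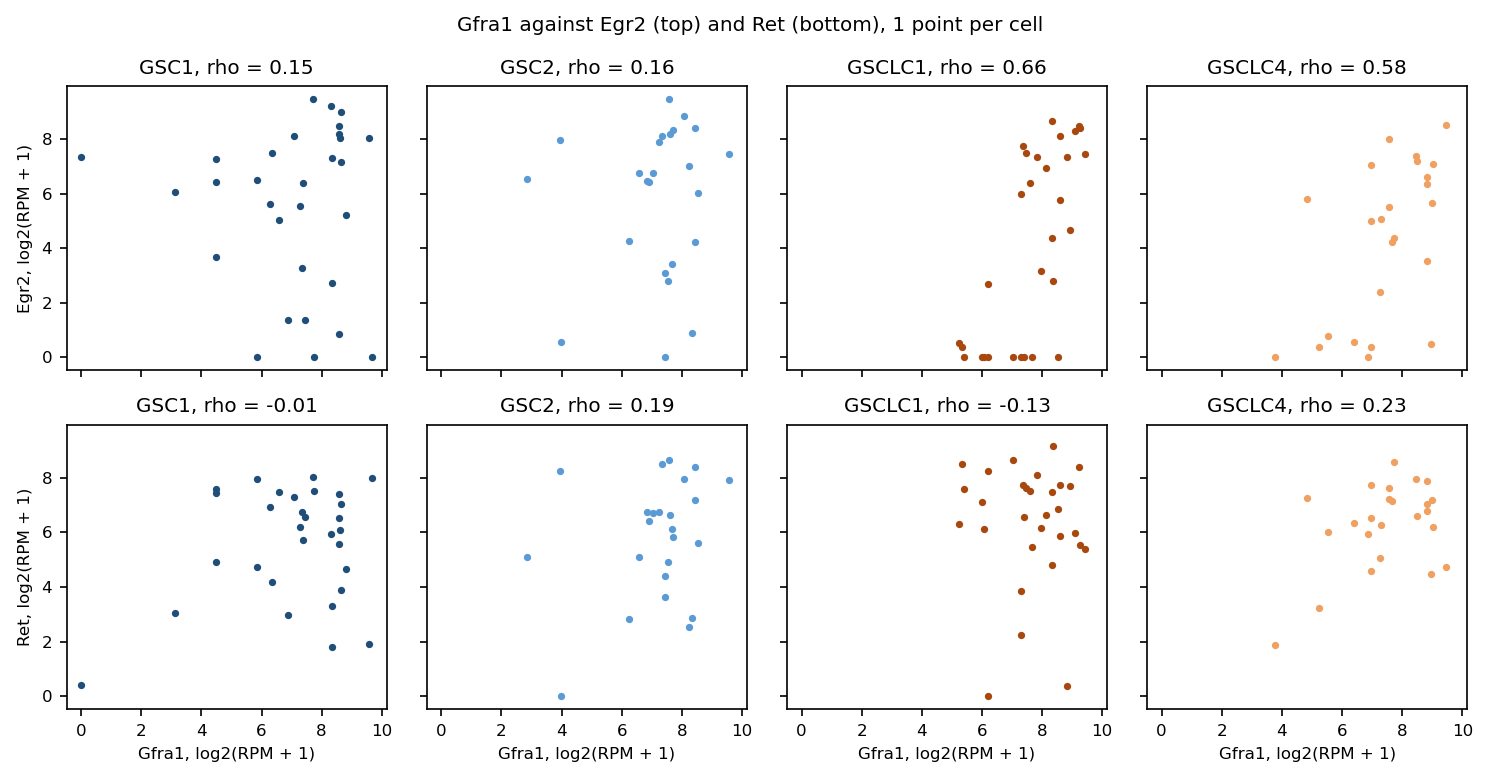
Each point is a cell, with Gfra1 on the horizontal axis against Egr2 (top row) or Ret (bottom row), both in log2(RPM + 1), for each of the 4 lines. In GSCLC1 and GSCLC4 cells with more Gfra1 had more Egr2 (rho 0.66 and 0.58), while Gfra1 and Ret formed a cloud with rho between -0.13 and 0.23.

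Among the transcription factor genes, Etv5 with Lhx1 and Lhx1 with Egr2 had the highest mean rho of the pairs computed in all 4 lines, 0.35 and 0.32. Etv5 and Lhx1 had rho of 0.33, 0.43, 0.41 and 0.21 over GSC1, GSC2, GSCLC1 and GSCLC4, and Lhx1 came 5th of 10096 genes in likeness to Etv5. Lhx1 and Egr2 had rho of 0.32, 0.32, 0.20 and 0.44, with 0.48 in the low-numbered GSC1 run and 0.14 in the other, and a Pearson's r of 0.13 in GSC2. Other pairs depended on the line. Gfra1 and Etv5 had 0.55 in GSC1 but -0.20 in GSC2. Within the GSC1 runs that pair had 0.33 (low-numbered) and 0.47, both below the value of the whole line. Ret and Egr2 had 0.72 in GSC2 but -0.22 in GSC1. T and Eomes could be paired in GSC1 alone, at 0.41. Of the 6 GSC1 cells with both, 4 were in the low-numbered run and 2 in the other. Egr2 and Egr3 were near 0, at -0.19, 0.12 and 0.10 in GSC1, GSC2 and GSCLC4.

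The nearest genes from outside the 10 were of mixed kinds. Tram1, a translocation channel component gene, was nearest to Lhx1 (mean rho 0.46), Ralgps2 to Pou3f1 (0.41), Uggt1 to Eomes (0.41) and Slc30a7 to Egr3 (0.43), with 3 lines used for Eomes and for Egr3. Myc was nearest to Egr2 at 0.40, with -0.03 to 0.60 over the lines. The row most like Etv5 was LOC100862159, with rho of 0.62, 0.66, 0.69 and 0.71. Its line means were 1.48, 1.62, 1.76 and 1.35 RPM, its signal summed to 0.532% of that of Etv5, and all of its 84 values above 0 were whole reads. It had no match in the RefSeq annotation used, and whether it shares reads with Etv5 was not tested.

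Of the 7 genes that could be computed in all 4 lines, 5 had a negative rho with the level of cell cycle genes in each line, some of them close to 0. This held for 6.88% of the 10085 genes above 0 in at least 25% of the cells of each line. The summed RPM of 12 G2 and M phase genes had a negative rho in all 4 lines with Etv5 (-0.30, -0.20, -0.58 and -0.12), Lhx1 (-0.28, -0.42, -0.31 and -0.19), Gfra1 (-0.28, -0.23, -0.31 and -0.02), Egr2 (-0.10, -0.33, -0.13 and -0.27) and Bcl6b (-0.03, -0.20, -0.22 and -0.09). Ret and Pou3f1 had rho of both signs. Egr2 had positive values with the sum of 18 other immediate early genes (0.32, 0.51, 0.33 and 0.14), and so did Gfra1 (0.29, 0.06, 0.09 and 0.005). This was a sign pattern of 7.70% of genes, and the rest of the 7 had values of both signs. Gfra1, Ret and Egr2 were positive with the sum of 11 ERK feedback and PEA3 genes in all 4 lines, a pattern of 14.5% of genes. The values were 0.36, 0.14, 0.24 and 0.34 for Gfra1, 0.25, 0.38, 0.08 and 0.05 for Ret and 0.055, 0.16, 0.20 and 0.12 for Egr2. T was positive with that sum in its 3 lines (0.60, 0.30 and 0.17). The number of detected genes had rho of 0.52 with Pou3f1 and 0.40 with Egr2 in GSCLC4, and after regression of ranks on it the rho between Pou3f1 and Egr2 in that line went from 0.023 to -0.24.

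The rest of the pathway was read from gene lists, and no gene of them passed the threshold between the types. Of 10 other GDNF family ligand and receptor genes, Gfra4 and Nrtn had enough signal to be tested, with log2 differences of 0.36 and 0.001, and Gdnf itself was at 0 in GSC1, GSC2 and GSCLC1. Of 31 genes of RET adaptors and kinases 22 were tested, 6 with a positive and 16 with a negative difference, and a median of -0.15. Over all tested genes 46.2% had a negative difference, with a median of 0.04. The widest were Grb10, an adaptor gene, at 1.55 ± 0.85 (6.32 and 3.41 RPM against 5.14 and 44.1 RPM), which was high in GSCLC4 alone, then Sos1, a RAS exchange factor gene, at -0.60, Cbl, a ubiquitin ligase gene, at -0.58 and Grb2, an adaptor gene, at -0.52.

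Of 11 ERK feedback and PEA3 genes 10 were tested, 3 with a positive and 7 with a negative difference, against 46.2% negative over all tested genes. Spry4, an inhibitor of the RAS and ERK pathway, had 16.6 and 17.7 RPM in the GSC lines against 5.41 and 5.78 RPM in the GSCLC lines (-1.46 ± 0.58, adjusted p = 0.512), and Spry2, its relative, went the other way with 15.8 and 26.9 RPM against 31.6 and 54.5 RPM (0.97 ± 0.44, adjusted p = 0.558). Dusp4 and Dusp5, phosphatase genes, differed by 0.56 ± 0.95 and -0.41 ± 0.33, and the line means of Dusp4 overlapped between the types. Among 6 other genes linked to GDNF 5 were tested. Tspan8, a tetraspanin gene, was at 17.7 and 20.3 RPM in GSC1 and GSC2, below the 55.4 and 54.0 RPM of GSCLC1 and GSCLC4 (1.48 ± 0.37, adjusted p = 0.285). Mycn, Id4 and Nanos2 had differences of -0.54 ± 0.45, -0.47 ± 0.43 and -0.43 ± 0.90, and the line means of Mycn and Nanos2 overlapped between the types.

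Of 18 other immediate early genes 12 were tested, 5 with a positive and 7 with a negative difference, against 46.2% negative over all tested genes. Both GSCLC means were below both GSC means for 7 (17.3% of all tested genes) and above them for 1, Myc. Counted in either direction, 39.3% of all tested genes did not overlap. Klf6, Zfp36 and Junb had the widest negative differences, -1.18, -1.14 and -1.04, and Myc had a positive one, 0.70. Of 15 primitive streak and mesoderm genes 4 were tested, Wnt3 at -1.18, Sp5 at -0.99, Foxa2 at 1.03 and Kdr at 0.03, while Cdx1, Cdx2 and Lefty2 were at 0 in all 4 lines. The line means of Foxa2 and Kdr overlapped between the types.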

How the data were processed

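The authors deposited 1 table of expression signal in RPM with 26218 gene rows and 92 spike-in RNAs, and all of its columns of values were used. The tools in the submitters' processing notes are cutadapt 1.3, TopHat 1.4.1 and Cufflinks 2.2.0, with build mm10. The treatment of multiply mapped reads is not stated there. Depth was estimated from the worth of 1 read in each cell. Whole reads (tolerance 0.05 read) made up 85.6% to 92.4% of the values per cell, too few for a count model. Spike-ins, which are outside the RPM scaling, were left out.

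The culture line was the replicate, since cells of 1 line are not independent. SEs and p-values start from the spread between 2 lines a side, which limma draws toward a variance fitted over all genes. An SE can thus be smaller or larger than the lines of that gene alone would give. The filter required a line mean of 5 RPM or more in 2 or more of the 4 lines, and the 10526 genes that passed were tested with limma 3.58.1 in R 4.3.3, with a mean-variance trend, on log2(mean RPM over cells + 1), a scale that understates changes of low genes. Benjamini-Hochberg adjustment ran over all tested genes, with a threshold of 0.05. Gene positions are RefSeq's for GRCm38.p6, matched by Entrez identifier, and promoter bases in exons were counted against GENCODE M21. The limma fit and the search for genes with similar patterns were tested on simulated data.

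All 10 genes and, by rule, the 3 genes with the highest mean rho to each (among genes above 0 RPM in at least 25% of cells) were eligible to be named, with up to 4 genes of each list by size of difference. The genes listed at 0, and Nanog, Rhox5, Wt1, Star, Fn1, Vim and S100a6, were named after their values were seen. The 10 genes and the lists were chosen with earlier results of these data known. Settings varied were the pseudocount, filter, scaling, line summary, trend, GSC1 runs and lines left out.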

Additional observations from a re-analysis of the deposited data

How the results depend on the processing

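Of the differences of the 10 genes between the types, recomputed under 15 other settings, 2 newly passed the threshold, 5 changed sign and the rest of those computed did neither. Eomes and Egr3 were not tested in 3 of the settings (the filter at 20 RPM, without GSC1 and without GSC2), and with line medians they were at 0 in every line and their difference was 0. Both that passed were Lhx1 (given in the report), which made 1 of the 8 genes tested with a filter at 20 RPM and 1 of 10 without GSCLC1. The sign changed for Etv5, to -0.034 (low-numbered GSC1 run alone), for Bcl6b, to 0.33 (high-numbered run alone), 0.19 (without GSC2) and 0.11 (without GSCLC1), and for T, to 0.031 (without GSCLC4). Leaving out 1 line gave -0.21 to 0.19 for Bcl6b and -3.45 to 0.031 for T. Against 8 of all genes called, the count was 3 with a pseudocount of 0.1 RPM, 14 with 10 RPM, 23 with a filter at 20 RPM, 22 with the mean of log2(RPM + 1) over cells, and 4 and 2 with the low-numbered and high-numbered GSC1 run alone. It was 0 by limma with no filter, with the line median and without a trend, where 1388, 706 and 871 genes had an unadjusted p under 0.05. Leaving out 1 line in turn gave 3 (GSCLC4), 5 (GSC1), 15 (GSCLC1) and 19 (GSC2), with the lone line assumed to vary like the pair. By Pearson's r of log2(RPM + 1) the median over pairs was 0.21 in GSC1, 0.10 in GSC2 and 0.16 in GSCLC4. Of 150 recomputed shares of cells 37 moved beyond their interval, and of 231 recomputed pair correlations 28 moved by more than their spread over the lines. With 2 lines a side and 24 to 30 cells a line, small differences and rare cells are poorly resolved, and many simulated 2-fold and 4-fold changes were missed. No paired analysis was possible because the numbers in the titles are serial numbers of cells, and the lines share none that pairs them.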
